A study of Mus musculus with 8 samples.

Results

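Prostaglandins are short-lived lipid signals made from arachidonic acid, and the genes that make, carry, sense and destroy them were followed here in mouse peritoneal mesothelial cells (MCs). The set was named as 8 genes in the order of the pathway: Pla2g4a, Ptgs1, Ptgs2, Ptges, Ptgis, Ptgds, Ptger4 and Hpgd. Hpgd was chosen by its lower values in CAV1-/- cells, so its differences between genotypes are given below as a description with no test. Of these 8, 7 had a row among the 13687 genes of the table, all 7 passed the filter on low values, and Ptgds was not analysed here.

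Prostaglandin synthesis starts when a phospholipase frees arachidonic acid from membranes, and the cyclooxygenases COX1 (Ptgs1) and COX2 (Ptgs2) turn it into an unstable intermediate that a terminal synthase converts into prostaglandin E2, prostacyclin or prostaglandin D2. The products leave the cell, act on G protein-coupled receptors, and are ended by uptake through a carrier and oxidation by the dehydrogenase that Hpgd encodes. The peritoneal mesothelium is a known source of prostacyclin and prostaglandin E2, and COX2 is the inducible enzyme of the pair.

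The cells came from the peritoneum of WT mice and CAV1-deficient littermates (labelled Cav-1-, here CAV1-/-) that lack caveolin-1, the coat protein of caveolae, in every tissue from the germ line on. They were grown to confluence and then stretched mechanically or left static for 24 h. Each of 4 animals, 2 per genotype, gave 1 static and 1 stretched culture, which makes 8 libraries in 4 groups of 2. The replicate numbers 1 and 2 stand for the animal within a genotype, so that a WT and a CAV1-/- culture of the same number come from different mice. Age was not given in the sources used here, and fetal calf serum and an insulin-containing supplement were part of the culture medium of every group. The paper states that this supplement was removed the day before an experiment.

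Poly A+ RNA was sequenced, and levels are given as TMM-normalized CPM, reads of a gene scaled to a common library size. The libraries held 9777738 to 21203938 reads, and every stretched library was deeper (at least 15861571 reads) than every static one (at most 14237503). Cav1 in the CAV1-/- cultures was at 5.15% of the WT mean in static cells and at 4.02% in stretched cells. Of 12 mesothelial markers 10 had a row, and 8 of these were lower in all 4 CAV1-/- cultures than in all 4 WT cultures. Their summed level was 2266 to 2694 CPM in WT and 706 to 950 CPM in CAV1-/- cultures. All 13 leukocyte markers with a row were highest in the cultures of CAV1-/- replicate 1, where they summed to 4906 and 4922 CPM, against 74.6 to 469 CPM in the other 6 libraries. In whole cultures, fewer cells of a type and less RNA per cell cannot be told apart.

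The 7 genes lie on mouse chromosomes 1, 2, 8 and 15 (GRCm38). Pla2g4a (chr1:149829618-149961290, minus strand) and Ptgs2 (chr1:150100031-150108227, plus strand) are transcribed away from each other with 138740 bases between them, so that the genes for the first and the second enzyme of the pathway are neighbours. Ptgs1 (chr2:36230426-36252272, plus strand), Ptges (chr2:30889471-30929863, minus strand) and Ptgis (chr2:167191805-167240604, minus strand) share chromosome 2. Hpgd lies at chr8:56294585-56321043 on the plus strand and Ptger4 at chr15:5206661-5244187 on the minus strand. Ptger4 overlaps its neighbour Ttc33 by 82 bases on the other strand, and the library kit does not mark strand, so reads from that stretch cannot be assigned by strand.

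The promoters of Hpgd and Ptgs2 are shown because these are the gene that differed most between genotypes and the gene that rose on stretch. Both sequences are the 250 bases before the start site in RefSeq (GRCm38.p6, plus strand), written 5′ to 3′ with the match to a Snail-type E-box in capitals. Snail is a repressor of epithelial genes that binds this motif, and the study measured it in stretched human mesothelial cells.
Hpgd, chr8:56294302-56294551: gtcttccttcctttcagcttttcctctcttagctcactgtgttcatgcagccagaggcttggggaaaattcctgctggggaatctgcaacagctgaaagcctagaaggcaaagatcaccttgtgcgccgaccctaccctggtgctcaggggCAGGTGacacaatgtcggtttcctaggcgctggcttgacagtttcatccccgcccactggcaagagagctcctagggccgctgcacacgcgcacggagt
Ptgs2, chr1:150099781-150100030: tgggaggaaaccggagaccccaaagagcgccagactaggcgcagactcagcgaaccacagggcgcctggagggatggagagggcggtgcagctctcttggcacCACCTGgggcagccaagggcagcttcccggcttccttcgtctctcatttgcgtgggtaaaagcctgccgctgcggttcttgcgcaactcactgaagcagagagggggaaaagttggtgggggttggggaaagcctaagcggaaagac
The motif marked is CACCTG on either strand, which occurs in 17.2% of 32851 promoters of this length. It begins 99 bases before the start in Hpgd, on the opposite strand (CAGGTG), and 147 bases before it in Ptgs2. The promoter windows of Pla2g4a, Ptgs1, Ptges, Ptgds and Ptger4 held no such match. The transporter genes Slco2a1 and Abcc4, described below, each held it in a window. TATA, TEAD and AP-1 motifs were searched too, which occur in 12.4%, 12.6% and 6.75% of promoters. Hpgd and Ptgs2 held none of these, while Ptges held a TEAD match and Ptgds an AP-1 match. Pla2g4a and Slco2a1 held a TATA match. Of the 8 genes 7 had a promoter in the RefSeq table (all but Ptgis). A match describes the letters of the window and not binding. The transcript of Snail itself, Snai1, averaged 47.6 ± 31.9 CPM in WT and 59.0 ± 30.9 CPM in CAV1-/- static cultures (SD, n = 2). Its genotype difference in static cells was 0.38 on the log2(CPM + 1) scale (limma adjusted p = 0.942). On stretch Snai1 was higher in 4 of 4 animals, as were 14.5% of all genes.

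Compared per kilobase of exon, the pathway genes spread over a wide range, as the plot of levels per length shows. Ptgs2 had the highest mean over the 8 libraries, at 310 CPM per kb (116 to 511), followed by Ptgis, the prostacyclin synthase, at 189 CPM per kb (111 to 236) and Ptgs1 at 125 CPM per kb (92.0 to 170). Ptgs2 exceeded Ptgis in 4 of 8 libraries, 1 WT and 3 CAV1-/-, so these neighbours in the order do not differ beyond their spread. Ptgis exceeded Ptgs1 in 8 of 8 libraries, and Ptgs1 exceeded Pla2g4a (mean 36.8 CPM per kb) in 8 of 8. Ptges, the inducible prostaglandin E synthase, averaged 4.88 CPM per kb, and its level per kb was 18.5 to 151 times below that of Ptgis. Ptger4, which encodes the prostaglandin E2 receptor EP4, lay between 1.90 and 4.13 CPM per kb. Hpgd held the place between Pla2g4a and Ptges in all 4 WT cultures (18.0 to 22.3 CPM per kb). In all 4 CAV1-/- cultures it was below Ptges (1.33 to 4.41 CPM per kb), and in 3 of them it was the lowest of the 7 genes.

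**Figure D1:**
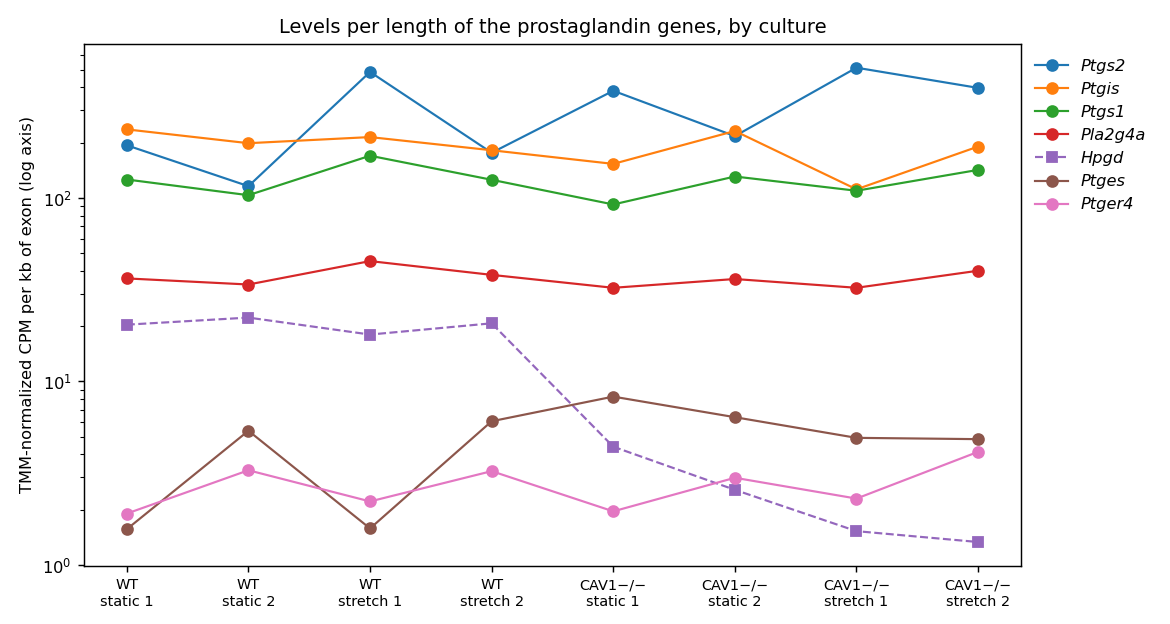
Level of each prostaglandin gene per kilobase of exon (TMM-normalized CPM per kb, log axis) in each of the 8 cultures, with lines only joining the points of a gene. Ptgs2, Ptgis and Ptgs1 lie at the top in every culture, while Hpgd lies at 18.0 to 22.3 in WT and at 1.33 to 4.41 in CAV1-/- cultures.

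Hpgd, the gene of the dehydrogenase that inactivates prostaglandin E2 and related prostaglandins, was measured at 34.3 and 37.5 CPM in WT static cultures and at 30.3 and 34.9 CPM in WT stretched cultures. In CAV1-/- cultures it was at 7.42 and 4.32 CPM when static and at 2.57 and 2.24 CPM when stretched. No CAV1-/- culture reached any WT culture, and the lowest WT value was over the highest CAV1-/- value in both conditions. These levels rest on 464 to 614 reads per WT library and on 41 to 90 reads per CAV1-/- library, well above 3 reads, the limit that a count of 0 allows. The static means were 35.9 ± 2.25 and 5.87 ± 2.19 CPM (SD, n = 2), a 6.11-fold lower level in CAV1-/- cells. The stretched means were 32.6 ± 3.25 and 2.41 ± 0.23 CPM, 13.5-fold lower. On the log2(CPM + 1) scale, which understates the change of a low gene, the differences were -2.46 (SE 0.25) and -3.30 (SE 0.25). These values belong to the contrast on which Hpgd was selected.

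Across all genes, 804 of 13665 (5.88%) were lower in all 4 CAV1-/- cultures than in all 4 WT cultures, and of the 7 pathway genes 1, Hpgd, was. CAV1-/- replicate 2, with summed leukocyte markers of 309 and 343 CPM, had Hpgd at 4.32 and 2.24 CPM, and replicate 1, with 4906 and 4922 CPM of those markers, had it at 7.42 and 2.57 CPM. The mesothelial markers were lower in the same 4 cultures, and the part of either marker list in the Hpgd difference was not tested.

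On stretch, Hpgd was lower in 4 of 4 animals, from 34.3 to 30.3 and 37.5 to 34.9 CPM in the WT pair and from 7.42 to 2.57 and 4.32 to 2.24 CPM in the CAV1-/- pair. The mean change over the 4 animals was -0.56 on the log2(CPM + 1) scale (SE 0.19, limma with the animal as a block, adjusted p = 0.154), which did not pass the threshold of 0.05. Within CAV1-/- cells the change was -0.97 (SE 0.25, limma adjusted p = 1.00, and 0.140 with the animal as a block), and within WT cells it was -0.14 (SE 0.25). The difference between these changes, -0.84, is given without a test because it draws on the genotype contrast.

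**Figure D2:**
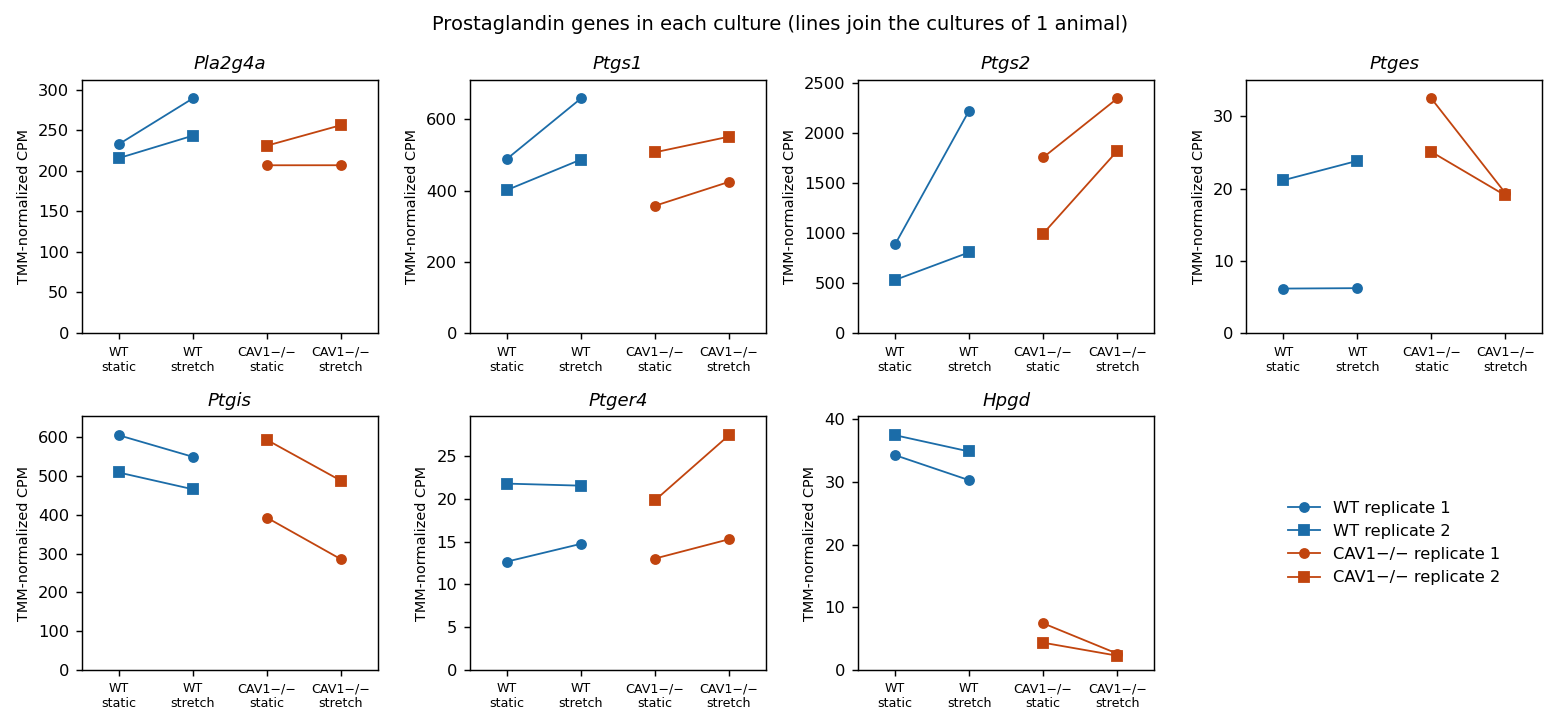
TMM-normalized CPM of the 7 prostaglandin genes in every culture, 1 panel per gene with its own linear axis from 0, and a line joining the static and the stretched culture of each animal. Ptgs2 is higher in the stretched culture of all 4 animals, and Hpgd in the CAV1-/- cultures lies between 2.24 and 7.42 against 30.3 to 37.5 in WT.

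Ptgs2, which encodes the inducible COX2, was the 1 pathway gene that passed the test for stretch. It went from 885 to 2221 CPM in WT replicate 1, from 530 to 806 CPM in WT replicate 2, from 1753 to 2343 CPM in CAV1-/- replicate 1 and from 993 to 1818 CPM in CAV1-/- replicate 2. The stretched culture was higher in 4 of 4 animals, by 2.51, 1.52, 1.34 and 1.83 times in that order. The static and stretched groups overlapped, since the static value of CAV1-/- replicate 1 was above the stretched value of WT replicate 2. The mean change within animals was 0.80 on the log2(CPM + 1) scale (SE 0.14, 1.75-fold, limma with the animal as a block, adjusted p = 0.0398). In that comparison 308 of 13665 genes (2.25%) passed the threshold, and 1 of the 7 pathway genes did.

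The Ptgs2 call rested on the pairing of cultures by animal and on nearly every animal. Without the block its adjusted p was 0.984, and it was lost without WT replicate 2, without CAV1-/- replicate 1 or without CAV1-/- replicate 2, with adjusted p from 0.043 to 0.131 over all omissions. edgeR (adjusted p = 0.0424) and DESeq2 (adjusted p = 7.5e-06) on the recovered reads called it too. Every stretched library was deeper than every static one, and the part of depth in this change was not tested.

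Ptgs1, the constitutive cyclooxygenase, and Pla2g4a, the cytosolic phospholipase A2 that supplies arachidonic acid to both, showed smaller differences in the same direction. Ptgs1 was at 489 and 401 CPM in WT static, 658 and 487 CPM in WT stretched, 357 and 507 CPM in CAV1-/- static and 424 and 551 CPM in CAV1-/- stretched cultures. Its mean change within animals was 0.27 (SE 0.07, limma adjusted p = 0.0842). DESeq2 on the recovered reads gave an adjusted p of 0.0209, under 0.05 unlike the other alternatives run. Pla2g4a was at 233 and 215 CPM in WT static and 289 and 243 CPM in WT stretched cultures, and at 207 and 231 CPM against 207 and 256 CPM in CAV1-/- cells. The change was 0.16 (SE 0.07, limma adjusted p = 0.223), and in CAV1-/- replicate 1 the static and stretched values were nearly equal (207 CPM each).

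Ptgis, the synthase of prostacyclin, was lower on stretch instead. It was at 606 and 509 CPM in WT static, 550 and 466 CPM in WT stretched, 393 and 594 CPM in CAV1-/- static and 286 and 488 CPM in CAV1-/- stretched cultures. The stretched culture was lower in 4 of 4 animals, and the mean change of -0.25 (SE 0.07) did not pass the threshold (limma adjusted p = 0.113). Counted by direction alone, 3 of the 7 genes (Ptgs2, Ptgs1 and Pla2g4a) were higher on stretch in 4 of 4 animals, where 14.5% of all genes were, and 2 of the 7 (Ptgis and Hpgd) were lower in 4 of 4, where 16.9% of all genes were. Of these 5 genes only Ptgs2 passed the test with limma, and the count for Pla2g4a includes CAV1-/- replicate 1, where the ratio of stretched to static was 1.00.

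Ptges and Ptger4, the pathway's prostaglandin E synthase and one of its receptors, had no common direction on stretch. Ptges was at 6.16 and 21.2 CPM in WT static, 6.21 and 23.8 CPM in WT stretched, 32.5 and 25.1 CPM in CAV1-/- static and 19.4 and 19.0 CPM in CAV1-/- stretched cultures. It was higher on stretch in both WT animals and lower in both CAV1-/- animals, with a mean of -0.23 (SE 0.15, limma adjusted p = 0.407). The 2 WT animals differed by more than 3 times in either condition, and without the animal as a block the SE was 0.50. Ptger4 was at 12.7 and 21.8 CPM in WT static, 14.7 and 21.6 CPM in WT stretched, 13.0 and 19.8 CPM in CAV1-/- static and 15.3 and 27.5 CPM in CAV1-/- stretched cultures. Its mean change was 0.21 (SE 0.10, limma adjusted p = 0.256), with 3 of 4 animals higher.

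**Figure D3:**
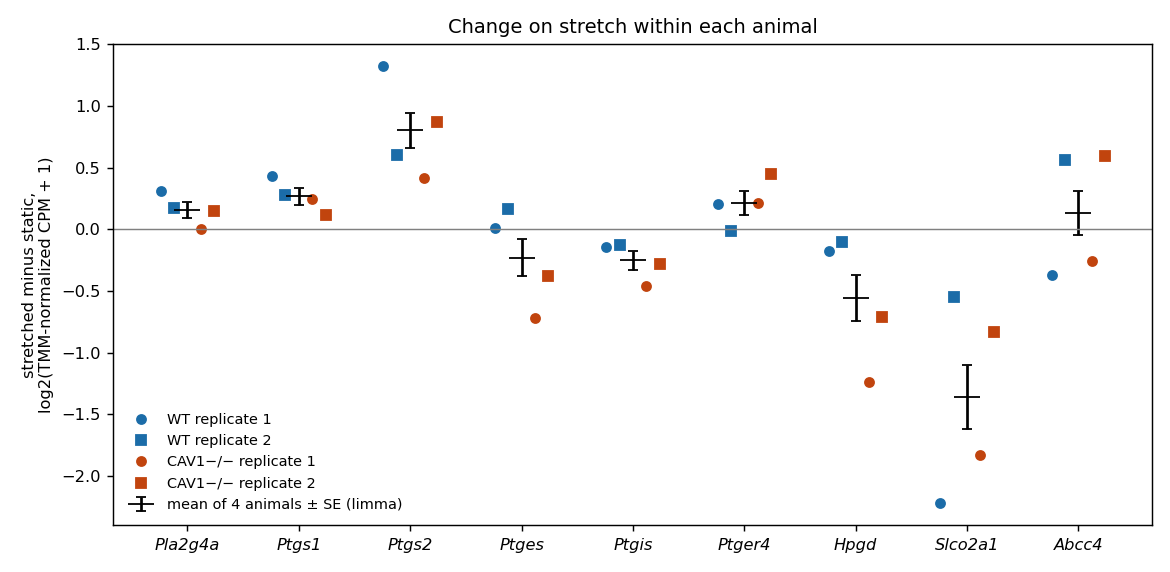
Stretched minus static value of each animal on the log2(TMM-normalized CPM + 1) scale for the 7 prostaglandin genes and the transporters Slco2a1 and Abcc4, with the mean of the 4 animals and its standard error from limma in black. Ptgs2 lies above 0 in all 4 animals with a mean of 0.80, and Slco2a1 lies below 0 in all 4 with a mean of -1.36.

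Taken within each genotype alone, stretch gave no gene past the threshold. In WT cells 0 of 13665 genes (0%) passed with limma, where 310 had an unadjusted p of at most 0.05, 0 passed with edgeR and 3 with DESeq2. In CAV1-/- cells 0 of 13665 (0%) passed with limma, where 286 had an unadjusted p of at most 0.05, 0 passed with edgeR and 7 with DESeq2. The Ptgs2 difference was 0.96 in WT (SE 0.55, limma adjusted p = 1.00) and 0.64 in CAV1-/- cells (SE 0.55, limma adjusted p = 1.00). These fits did not use the pairing by animal. With the animal as a block the SE was 0.19 in each genotype, with limma adjusted p of 0.167 in WT and 0.266 in CAV1-/- cells. The difference between these responses was -0.32 (SE 0.78, limma adjusted p = 1.00). Its SE was 0.27 with the animal as a block (limma adjusted p = 0.947). A response of COX2 that depends on genotype did not pass in either fit, with 2 animals each. For the interaction 0 of 13665 genes (0%) passed with limma, edgeR or DESeq2. In the limma fit without the pairing 66 had an unadjusted p of at most 0.05, and none of the 6 pathway genes tested did. With the animal as a block Ptges had an unadjusted limma p of 0.0166 (adjusted p = 0.947).

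Between genotypes, the genes of synthesis gave differences with wide errors. Ptgs2 in static cells was at 1753 and 993 CPM in CAV1-/- against 885 and 530 CPM in WT cultures, so the groups did not overlap. Both CAV1-/- static cultures were above both WT static cultures in 16.1% of all genes and in 2 of the 7 pathway genes, Ptgs2 and Ptges. The Ptgs2 difference was 0.94 on the log2(CPM + 1) scale (SE 0.55, limma adjusted p = 0.778). In stretched cells the groups overlapped (2343 and 1818 against 2221 and 806 CPM), with a difference of 0.62 (SE 0.55, limma adjusted p = 0.979) that turned to -0.11 without the WT stretched culture of replicate 2. Ptges in static cells was also higher in both CAV1-/- cultures than in both WT cultures, by 1.23 (SE 0.71, limma adjusted p = 0.775), a value that was 0.42 without WT replicate 1 and 2.05 without WT replicate 2. Neither passed the test.

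Pla2g4a and Ptgs1, which release and first oxidise arachidonic acid, differed little between static WT and CAV1-/- cells, by -0.04 (SE 0.16) and -0.06 (SE 0.26). Ptgis differed by -0.20 (SE 0.31) in static and -0.44 (SE 0.31) in stretched cells, and Ptger4 by -0.05 (SE 0.40) and 0.19 (SE 0.40). In static cells 10 of 13665 genes (0.0732%) passed the threshold between genotypes and in stretched cells 8 (0.0585%), and none of the 6 pathway genes tested was among them in either condition. The errors are too wide to say that the levels were equal.

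**Figure D4:**
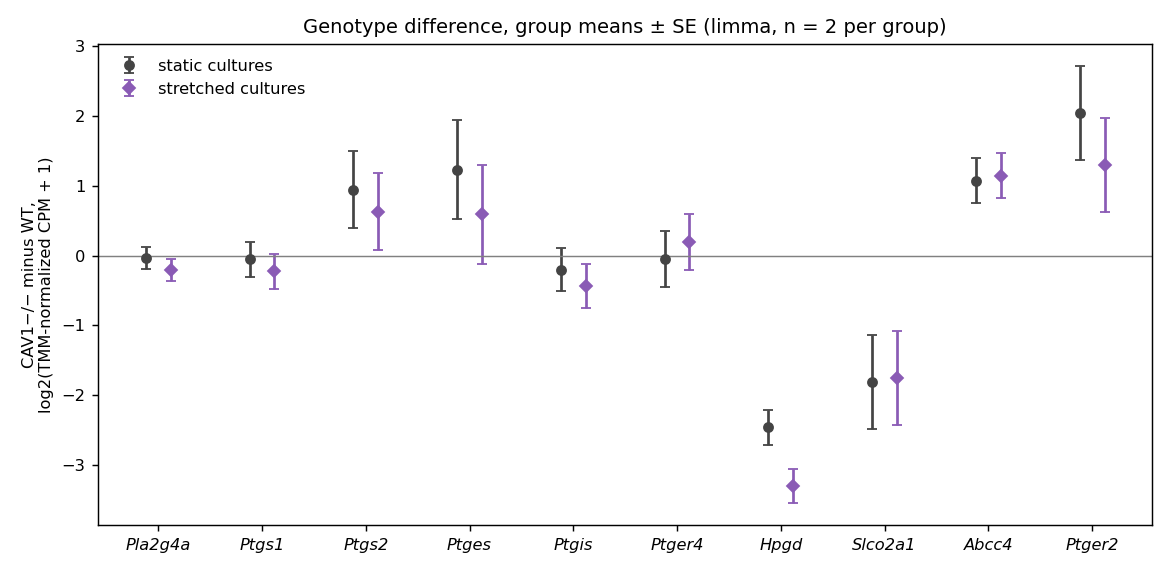
Difference between CAV1-/- and WT cultures on the log2(TMM-normalized CPM + 1) scale, static (circles) and stretched (diamonds), with the standard error from limma (n = 2 cultures per group), for the 7 prostaglandin genes, the transporters Slco2a1 and Abcc4 and the receptor gene Ptger2. Hpgd lies at -2.46 and -3.30 and Slco2a1 at -1.81 and -1.76, while Pla2g4a, Ptgs1, Ptgis and Ptger4 lie within 0.44 of 0.

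The transcript ratio of Ptgs2 to Hpgd per kb of exon was 9.49 and 5.20 in WT static, 27.0 and 8.49 in WT stretched, 86.9 and 84.5 in CAV1-/- static and 335 and 298 in CAV1-/- stretched cultures. The ratio was higher in the stretched culture of every animal, which follows from the rise of Ptgs2 and the fall of Hpgd given above. Its order between genotypes follows from the selection of Hpgd on that contrast and is no result of its own, and enzyme activity and prostaglandins were not measured here. The ratio of Ptgs2 to Ptgs1 lay between 1.12 and 4.68 in the 8 libraries, above 1 in each.

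Around these genes, 35 related genes of the eicosanoid pathway had a row, in lists of release, terminal synthesis, receptors, transport and breakdown, and lipoxygenases. Of these 1 passed the threshold in the reported limma fit, in the comparison of stretch over the 4 animals, where 2.25% of all genes did. DESeq2, and limma with a block on the replicate number, called others among them, given below. Slco2a1, the carrier that takes prostaglandins up for oxidation, was at 455 and 486 CPM in WT static, 96.9 and 331 CPM in WT stretched, 114 and 156 CPM in CAV1-/- static and 31.2 and 87.1 CPM in CAV1-/- stretched cultures. It fell on stretch in 4 of 4 animals, by 1.36 on the log2(CPM + 1) scale (SE 0.26, limma with the animal as a block, adjusted p = 0.0493). The adjusted p was 0.0119 with DESeq2, 0.0574 with edgeR and 0.984 without the block. With limma it was 0.0514 with a pseudocount of 0.1 and 0.0553 with a pseudocount of 5. It was 0.044 among genes with a mean of at least 5 and 0.046 with median-of-ratios rescaling. When single cultures were left out it lay between 0.040 and 0.172. Of 16 alternatives 6 were under 0.05, so the call sat at the threshold.

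Slco2a1 works ahead of Hpgd in the same clearance step, and it too was lower in CAV1-/- cells in both conditions, with no overlap between the genotypes within a condition. In static cells 20.8% of all genes were lower in both CAV1-/- than in both WT cultures, and in stretched cells 15.9% were, where the gap for Slco2a1 was between 87.1 and 96.9 CPM. The differences were -1.81 (SE 0.67, limma adjusted p = 0.550) in static and -1.76 (SE 0.67, limma adjusted p = 0.735) in stretched cells, short of the threshold. The stretched difference was -2.64 without the WT stretched culture of replicate 1, -0.88 without that of replicate 2, -1.03 without the CAV1-/- stretched culture of replicate 1 and -2.48 without that of replicate 2. Abcc4, an exporter of prostaglandins, was at 21.8 and 21.2 CPM in WT static, 16.7 and 31.8 CPM in WT stretched, 53.0 and 40.5 CPM in CAV1-/- static and 44.2 and 61.6 CPM in CAV1-/- stretched cultures. Every CAV1-/- culture was above every WT culture, as in 3.86% of all genes. The differences of 1.07 in static (SE 0.33, limma adjusted p = 0.427) and 1.14 in stretched cells (SE 0.33, limma adjusted p = 0.499) did not pass the threshold, and the stretched one was 0.70 without WT replicate 1. On stretch Abcc4 had no common direction.

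**Figure D5:**
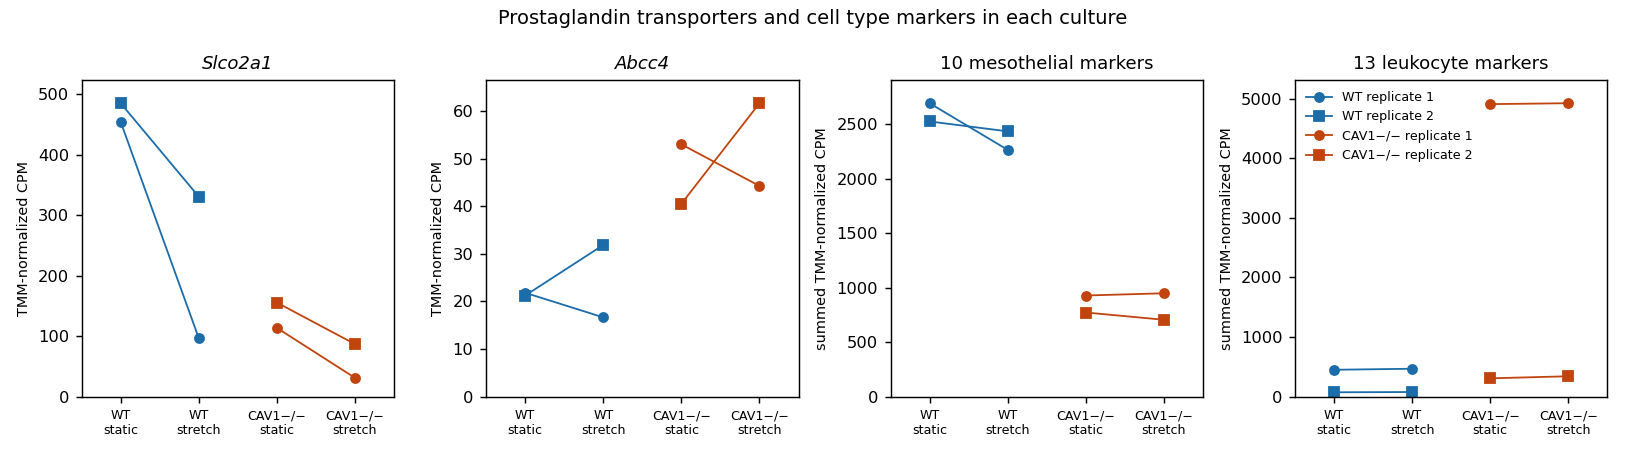
TMM-normalized CPM of the prostaglandin importer Slco2a1 and the exporter Abcc4, and the summed CPM of 10 mesothelial and 13 leukocyte markers, in every culture, with lines joining the cultures of each animal. Slco2a1 is lower in the stretched culture of all 4 animals, the mesothelial sum is 2266 to 2694 in WT and 706 to 950 in CAV1-/- cultures, and the leukocyte sum is 4906 and 4922 in CAV1-/- replicate 1 alone.

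Of the 10 genes that release arachidonic acid or its precursors, 0 passed the threshold in any comparison of the reported limma fit, and Mgll, the monoacylglycerol lipase, had the highest level per kb. At an unadjusted p of at most 0.05, Dagla was higher (0.53, limma adjusted p = 0.599) and Faah lower (-0.85, limma adjusted p = 0.535) in CAV1-/- static cells. Pla2g12a was lower on stretch over the 4 animals (-0.31, limma adjusted p = 0.119), and Pla2g4b was lower on stretch within CAV1-/- cells (-0.86, limma adjusted p = 1.00). Faah rested on 9 and 3 reads in CAV1-/- static cultures, and Pla2g4b on 6 and 8 reads in CAV1-/- stretched cultures. Pla2g7 differed between genotypes by 2.95 in static cells (limma adjusted p = 0.796). With a block on the replicate number, which does not pair animals across genotypes, its limma adjusted p was 0.0346. It was at 232 and 202 CPM in CAV1-/- replicate 1 and at most 20.3 CPM elsewhere. Of the 10 other terminal synthases, 0 passed the adjusted threshold in the reported limma fit, and Ptges3, the cytosolic prostaglandin E synthase that is also a chaperone partner, was the most abundant per kb. Its change on stretch over the 4 animals was 0.28 (SE 0.06, limma adjusted p = 0.0649, and 0.0126 with DESeq2). Akr1c18, also on that list, differed between genotypes by -1.73 in static and -2.13 in stretched cells (limma adjusted p = 0.765 and 0.867). With the block on the replicate number its limma adjusted p was 0.0344 and 0.0348. Of 7 other receptor genes, 0 passed, and the most abundant per kb was Ptgfrn, a regulator of the prostaglandin F receptor. Ptgir, the prostacyclin receptor gene, differed by -0.32 on stretch over the 4 animals (SE 0.14, limma adjusted p = 0.230). Ptger2, which encodes the receptor EP2, was at 7.09 and 5.45 CPM in CAV1-/- static cultures against 1.33 and 0.32 CPM in WT static cultures, a difference of 2.04 (SE 0.68, limma adjusted p = 0.480). These WT values rest on 19 and 4 reads. In stretched cultures Ptger2 was at 5.53 and 7.55 CPM in CAV1-/- against 5.23 and 0.49 CPM in WT. That difference was 1.29 (SE 0.68, limma adjusted p = 0.904).

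The 4 lipoxygenase and leukotriene genes gave 0 calls with limma. Cysltr1, a leukotriene receptor gene, was lower in CAV1-/- stretched cells (-1.87, SE 0.63, limma adjusted p = 0.651) and on stretch over the 4 animals (-0.87, SE 0.19, limma adjusted p = 0.0668), and DESeq2 gave adjusted p of 0.0252 and 0.0234. Several genes of leukocyte-type eicosanoid pathways followed the leukocyte markers of CAV1-/- replicate 1. Alox5ap, the activating protein of leukotriene synthesis, was at 22.8 and 24.9 CPM there and at most 2.61 CPM in the other 6 libraries, and Tbxas1, the thromboxane synthase, was at 7.86 and 10.9 CPM against at most 1.26 CPM. Of the 7 prostaglandin genes above, Ptgs2 was higher in that animal than in the other 3 within each condition (1753 CPM static and 2343 CPM stretched), and none had both cultures of that animal above the other 6 libraries. Ptgis and Pla2g4a were lowest in both, with Ptgis at 393 and 286 CPM against 466 to 606 CPM in the other 6 libraries and Pla2g4a at 207 CPM in each against 215 to 289 CPM. That animal also stood apart in some of 9 fibroblast and mural markers, 2 of which were highest in both its cultures. Myh11 was at 322 and 184 CPM there against at most 102 CPM elsewhere. Pdgfra (55.4 and 19.3 CPM) and Dcn (142 and 42.6 CPM) were lowest there, against at least 154 and 203 CPM. Whether these or the leukocyte transcripts had a part in the values of the prostaglandin genes was not tested.

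Over the 8 libraries, the genes whose log2(CPM + 1) was most like that of each pathway gene were named among 10797 genes with a mean of at least 5 CPM. For Hpgd they were Ifi47 (Pearson r = 0.98), Gpm6a (r = 0.98) and Chp1 (r = 0.98), and Gpm6a, one of the mesothelial markers used above, averaged 77.1 CPM in WT and 3.25 CPM in CAV1-/- cultures. Since Hpgd was chosen on its genotype difference, its likeness to genes that differ by genotype follows from that choice. It is no result of its own. For Ptgs2 the most alike genes were Asic3, Plod2 and Kpna3 (r = 0.98, 0.98 and 0.97). For Ptgis they were Spc25, Gm12505 and Timp3, for Ptgs1 Hells, Cyp51 and Tex9, for Ptges Gpr176, Rgs16 and S1pr2, for Ptger4 Nmnat2, Cbfb and 4933407K13Rik, and for Pla2g4a Lrif1, Llph-ps2 and Thoc7. Among the pathway genes themselves, Pla2g4a and Ptgs1 were the most alike (r = 0.95), while the neighbours Pla2g4a and Ptgs2 had an r of 0.22. These are descriptions over 8 libraries that share animals and depth, with the best of many genes picked for each.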

How the data were processed

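RNA-seq was made from poly A+ RNA of 8 mouse mesothelial cultures (NEBNext Ultra kit, single reads). Adapter trimming by the authors used Cutadapt, alignment to the GRCm38.76 transcriptome and quantification used RSEM, and the expected counts were normalized by TMM in edgeR. The deposited values are this normalized signal per gene (TMM-scaled CPM). Since TMM scaling assumes that most genes do not differ, levels are relative to the other genes of a library. Whole reads were recovered from 100% of values (tolerance 0.02 reads), and 22 of 13687 genes with 1 CPM or more in fewer than 2 libraries were removed.

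The members and the gene lists were chosen with earlier results of these data known, and Hpgd was chosen on its genotype difference. All pathway genes are named. Of the related lists, genes are named that passed the adjusted threshold or an unadjusted p of 0.05, or had the highest level per kb in their list. Akr1c18 and Pla2g7 are named for their calls with the block on the replicate number. Leukocyte-type genes (Alox5ap, Tbxas1) were picked after their values were seen. The 3 genes most like each pathway gene are named by Pearson r. limma 3.58.1 (R 4.3.3) was fitted to log2(CPM + 1) over all 8 libraries with a trended prior, 1 mean per group and Benjamini-Hochberg adjustment over 13665 genes. This fit, used between genotypes, treats the static and the stretched culture of an animal as independent (4 residual degrees of freedom). Their deviations correlate, as given below, so the spread between animals rests on fewer independent values than that. The stretch comparison over 4 animals has the animal as a block (3 residual degrees of freedom). The labels give the animal, so the numbers pair static with stretched cultures; the correlation of their deviations was 0.70 in WT and 0.85 in CAV1-/- cells. Across genotypes the numbers stand for different animals, yet the same correlation was 0.52 in static and 0.48 in stretched cells. What cultures of the same number shared across genotypes was not tested. An exact permutation test of 2 against 2 cannot go below p = 0.333, and of 4 pairs below 0.125, so none is used. Alternatives were edgeR 4.0.16 and DESeq2 1.42.0 on the recovered reads, other pseudocounts, filters and scalings, and leaving out each culture. The code was tested on simulated data. Positions and exon lengths come from GENCODE M21 (13597 of 13687 identifiers matched) and promoters from RefSeq. Intervals from read counts cover counting error only.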

Additional observations from a re-analysis of the deposited data

Results flagged for a closer look

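Ptges differed on stretch in opposite directions in the 2 genotypes: both WT animals were higher (by 0.01 and 0.17 on the log2(CPM + 1) scale) and both CAV1-/- animals lower (by -0.72 and -0.38), an interaction of -0.64. limma gave the interaction an adjusted p of 1.00, and of 0.947 (unadjusted 0.0166) with the animal as a block, so the difference did not pass the test. With 1 culture of the WT group left out it ranged from -1.53 to 0.26.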

How the results depend on the processing

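In the comparison of stretch over the 4 animals, 308 genes (1 of them Ptgs2) passed in the reported fit, 777 with DESeq2 (2 pathway genes, Ptgs2 and Ptgs1), 0 without the replicate block (0 pathway genes) and 0 to 147 with single cultures left out (0 to 1 pathway genes). DESeq2 gave 3 genes for stretch in WT and 7 in CAV1-/- cells, where the reported fit gave 0, and the replicate block gave 1 in CAV1-/- cells. Between genotypes, the 10 static and 8 stretched calls became 309 and 238 with DESeq2, 246 and 110 with a block on the replicate number, which does not pair animals across genotypes, 2 with edgeR (static), 0 and 0 with only the 4 libraries compared, and 0 to 8 and 0 to 7 with single cultures left out. The block changed no other call of a pathway gene. The causes were not tested. Leaving out single cultures turned these log2 differences, none of which was called. Stretch in WT: Ptges -0.80 to 0.98, Ptger4 -0.27 to 0.46. Stretch in CAV1-/-: Pla2g4a -0.079 to 0.23, Ptgs1 -0.069 to 0.44, Ptgis -0.76 to 0.016, Ptger4 -0.070 to 0.74. Genotype, static: Pla2g4a -0.11 to 0.044, Ptgs1 -0.31 to 0.20, Ptgis -0.50 to 0.10, Ptger4 -0.42 to 0.32. Genotype, stretched: Ptgs2 -0.11 to 1.36, Ptges -0.30 to 1.49, Ptger4 -0.21 to 0.60. Interaction: Ptgs1 -0.42 to 0.082, Ptgs2 -1.05 to 0.41, Ptges -1.53 to 0.26, Ptgis -0.62 to 0.15, Ptger4 -0.16 to 0.64. A culture left alone in its group was assumed to vary like the other groups. The Hpgd genotype difference, whose direction the choice of the gene fixed, was -2.79 to -1.92 (static) and -3.75 to -2.34 (stretched) over the alternatives. With 2 animals per genotype, differences of the size of their errors were not detectable.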
